A study of Homo sapiens with 6 samples.

Results

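The genes described here mostly encode chromatin remodellers and enzymes that write or erase histone methylation. They are the 60 protein-coding genes of the RefSeq GRCh38 table, out of 20033 on chromosomes 1 to 22, X and Y, whose symbol starts with SMARC (13 genes), CHD and a digit (11), KMT and a digit (8), KDM and a digit (20) or ARID and a digit (8), without ARID4A and ARID4B. CHD9NB meets this rule by its symbol, which names its place beside CHD9, and is counted although it is not known as a remodeller. Deposited peaks were assigned to a gene when they lay in the gene body or within 5 kb of either end.

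The peaks come from CUT&RUN, in which an antibody directs a nuclease to a chromatin protein and the released DNA is sequenced. All 6 libraries were made from wild-type H1 cells, a human embryonic stem cell line, at day 30, 4 against MYT1L and 2 using IgG, the negative control. The design text calls the cells stem cell-derived cortical interneurons, whereas the label of each sample gives embryonic stem cells as the cell type. All libraries share this single line, with the passage given only as a range, and nothing in the labels says that they came from separate cultures, so the spread between them may be technical. Peaks do not measure expression and cannot check the cell type.

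ATP-driven remodellers slide, eject or exchange nucleosomes. The SMARC and ARID genes include those encoding subunits of the BAF and PBAF complexes and the ISWI motors. Most CHD genes encode motors with chromodomains, among them the NuRD ATPases. KMT enzymes add methyl groups to histone lysines and KDM enzymes remove them, and many genes of both kinds are mutated in neurodevelopmental disorders. MYT1L is a zinc-finger factor of postmitotic neurons known to repress non-neuronal genes, and proteins of its family recognise the core sequence AAGTT.

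The 250 bases before the start of 6 of these genes are given here to show the promoter DNA beside which peaks were or were not called. SMARCA5, CHD1L and KDM4C had the highest mean fold among genes with a peak summit inside the promoter window. KDM2A and KMT2A were chosen after their values were seen, since the summits of all 4 MYT1L libraries lay inside the window, as they also did at KDM3A. KDM5D is the gene with a promoter entry that had no MYT1L peak within 5 kb of its start. The sequences are from RefSeq (GRCh38.p14), 5′ to 3′ on the strand of the gene, and capitals mark AAGTT or its reverse complement AACTT. The windows are chr4:143513452-143513701 (plus strand), chr1:147172497-147172746 (plus), chr9:6757723-6757972 (plus), chr11:67119013-67119262 (plus), chr11:118436242-118436491 (plus) and chrY:19744727-19744976 (minus), in this order.
SMARCA5: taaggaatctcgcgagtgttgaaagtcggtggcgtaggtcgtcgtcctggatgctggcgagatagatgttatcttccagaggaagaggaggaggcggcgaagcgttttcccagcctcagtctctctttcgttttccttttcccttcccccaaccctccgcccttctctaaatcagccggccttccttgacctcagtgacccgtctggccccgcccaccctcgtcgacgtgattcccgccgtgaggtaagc
CHD1L: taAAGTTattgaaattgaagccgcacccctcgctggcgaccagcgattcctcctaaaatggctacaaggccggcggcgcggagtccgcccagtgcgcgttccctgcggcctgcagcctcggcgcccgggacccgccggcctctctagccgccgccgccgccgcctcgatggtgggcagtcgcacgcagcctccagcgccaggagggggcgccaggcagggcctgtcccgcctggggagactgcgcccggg
KDM4C: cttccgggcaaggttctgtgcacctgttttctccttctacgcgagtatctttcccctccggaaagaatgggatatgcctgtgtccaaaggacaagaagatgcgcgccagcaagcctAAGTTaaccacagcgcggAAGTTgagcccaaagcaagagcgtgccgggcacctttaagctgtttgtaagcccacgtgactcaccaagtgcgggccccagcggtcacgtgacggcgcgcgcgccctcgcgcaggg
KDM2A: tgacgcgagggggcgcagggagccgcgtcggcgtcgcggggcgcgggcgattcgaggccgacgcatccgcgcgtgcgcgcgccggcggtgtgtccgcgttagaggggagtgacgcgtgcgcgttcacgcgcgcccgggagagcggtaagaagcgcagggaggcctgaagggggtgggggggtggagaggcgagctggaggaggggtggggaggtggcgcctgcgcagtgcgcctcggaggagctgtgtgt
KMT2A: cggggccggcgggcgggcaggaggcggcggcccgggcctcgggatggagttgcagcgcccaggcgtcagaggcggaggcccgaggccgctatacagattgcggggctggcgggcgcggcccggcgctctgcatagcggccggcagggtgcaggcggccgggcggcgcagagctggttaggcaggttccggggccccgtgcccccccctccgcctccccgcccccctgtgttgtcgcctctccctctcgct
KDM5D: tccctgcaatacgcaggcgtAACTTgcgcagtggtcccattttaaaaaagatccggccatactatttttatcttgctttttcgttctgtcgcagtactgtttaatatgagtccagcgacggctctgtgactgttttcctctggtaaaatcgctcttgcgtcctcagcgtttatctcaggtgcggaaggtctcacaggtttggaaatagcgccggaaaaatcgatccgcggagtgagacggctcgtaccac

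These stretches differed in their content of G and C, and the median over all protein-coding promoters was 62%. The GC content was 58.0% for SMARCA5, 72% for CHD1L, 59.2% for KDM4C, 75.2% for KDM2A and 78.4% for KMT2A, and 48.8% for KDM5D. The core AAGTT, searched on both strands, occurred in CHD1L, KDM4C and KDM5D and did not occur in the windows of SMARCA5, KDM2A and KMT2A. Over all 79 promoter entries of 50 of the genes, 20 (25.3%) held it, against 27.0% of 22198 protein-coding promoters. Among promoters overlapped by a reproducible region the share was 23.7% (9 of 38) for these genes and 18.2% for all genes, and among those without one it was 26.8% (11 of 41) and 31.8%. The median GC content also differed, 68% with a region and 57.2% without for all genes, and 69.8% and 58.8% for these genes. Its part in the shares of AAGTT was not tested. The longer AAAGTT, which contains AAGTT, was found in 7.59% of the genes' promoter entries and in 9.66% of all. A match describes the letters of the window and not a binding site. CHD5, SMARCC1, CHD7, KDM4E, ARID2, SMARCC2, ARID3B, CHD9NB, ARID3A and CHD6 have no entry in the promoter table.

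Most remodeller and methylation genes carried MYT1L peaks, and nearly none carried IgG peaks. For MYT1L replicates 1 to 4, the number of the 60 genes with a peak in the body or within 5 kb was 54, 40, 44 and 57. IgG replicates 1 and 2 each had a peak at 1 gene. The 4 MYT1L values, 48.8 ± 8.06 genes (mean ± SD, n = 4), all lay above both IgG values. Replicate 2, the shallowest MYT1L library, had the lowest. As shares these were 90.0%, 66.7%, 73.3% and 95.0% of the genes, beside 68%, 43%, 57.3% and 77.6% of all protein-coding genes. The shares of all genes were not weighted by gene length, and the 60 genes are longer, with a median of 69.5 kb against 24.1 kb. The part of length in the difference was not tested. In the controls the share was 1.67% in each, beside 1.61% and 2.9% of all genes. For a single gene, an exact permutation test over the 15 splits of 6 libraries into 4 and 2 cannot go below p = 0.133, two-sided, so no gene could pass a threshold of 0.05, and no p is given over the set.

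**Figure D1:**
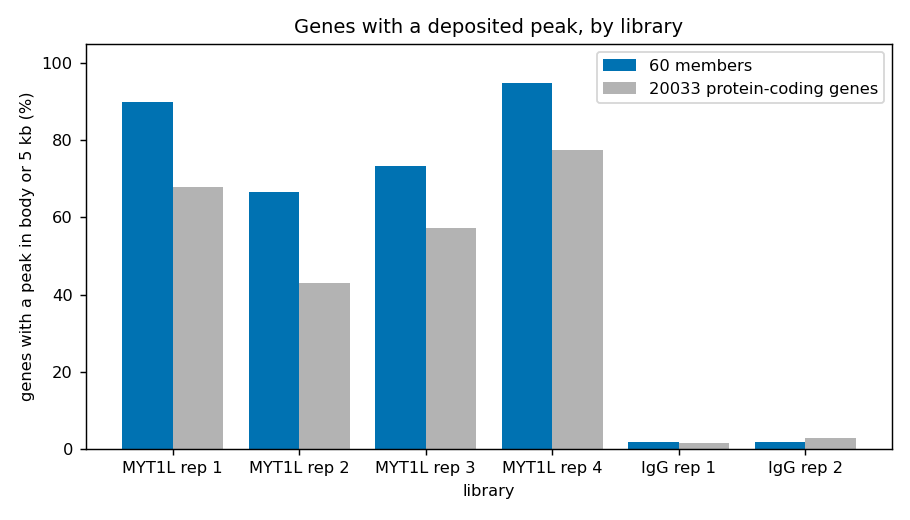
Share of genes (percent, vertical axis) with at least 1 deposited peak in the gene body or within 5 kb of it, for each of the 6 libraries (horizontal axis), in the 60 remodeller and methylation genes and in all 20033 protein-coding genes. The 60 genes stand at 66.7% to 95.0% in the MYT1L libraries, above all genes in each of the 4, and at 1.67% in both IgG libraries. The shares are not weighted by gene length, and the 60 genes are longer than all genes.

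Depth differed between the antibodies. The lowest background shared by peaks, in fragments expected at a position, was taken as depth. It was 1.18, 0.421, 1.05 and 0.895 in MYT1L replicates 1 to 4 and 0.329 and 0.190 in the IgG libraries. Local background at a peak could be higher, such as 3.37, 1.86, 2.65 and 6.80 in MYT1L replicates 1 to 4 at the ARID1A start. The lists held 27926, 12310, 18966 and 30086 peaks against 976 and 998. When the peaks of MYT1L replicates 1 to 4 were reduced by calculation to the background of IgG replicate 1, 20.2, 32.4, 16.3 and 50.9 of the 60 genes were expected to keep a peak, against 1 observed. For all protein-coding genes the expected shares were 19.3%, 34.0%, 17.2% and 56.8%, against 1.61% observed. Reduced to the second control, 9.49, 17.5, 7.71 and 38.3 genes would keep one, again against 1, and 9.08%, 17.8%, 7.81% and 38.1% of all genes, against 2.9%. The calculation also fell short between the controls, where IgG replicate 1 reduced to replicate 2 gave 0.0645 of the 60 genes against 1 observed and 0.862% of all genes against 2.9%. With only the top 976 peaks of each library, 0, 3, 1 and 2 of the genes had a peak in MYT1L replicates 1 to 4 and 1 in each IgG library. Of all genes, 0.933%, 2.12%, 0.849% and 3.75% had such a peak in the MYT1L libraries and 1.61% and 2.82% in the controls.

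Peaks of the MYT1L libraries that overlapped were joined into regions, and a region with peaks of at least 3 of the 4 libraries and no IgG peak is called reproducible. Such a region lay in the body or within 5 kb of 41 of the 60 genes (68.3%), beside 48% of all protein-coding genes. The genes are long, with a median of 69.5 kb against 24.1 kb, and longer genes more often held a region. Of those under 25 kb, 9 of 12 had a region, beside 36.1% of all genes of that length. The count was 19 of 29 between 25 and 100 kb, beside 56.7%, and 13 of 19 above 100 kb, beside 67.6%. With the shares of all genes weighted by these length classes, 56% of the 60 would have a region. The longest genes thus had regions about as often as other genes of their length. Peaks of all 4 MYT1L libraries and of no IgG library lay at 32 genes (53.3%), beside 29.8% of all genes, a share not weighted by length.

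The regions lay mainly where transcription starts. A reproducible region within 1 kb of a gene start was found for 37 of the 60 genes (61.7%), beside 40.7% of all protein-coding genes and 48.5% after weighting by length class. Peaks of all 4 libraries made up such a region at 22 genes (36.7%), beside 21.2% without weighting. Within the length classes the counts were 6 of 12 genes beside 28.9%, 18 of 29 beside 50.2%, and 13 of 19 beside 58.3%. The starts are those of the promoter table and the 5′ end of the gene, and either end stood in for the 10 genes without an entry. A gene was counted if any of its starts had a region. The 50 genes with an entry had 79 promoter entries, and the 15842 of all genes had 22198, so these genes had more starts each. The part of this in the higher share was not tested. Among the 50 genes with an entry, 33 (66.0%) had a start region, beside 43.1% of all genes with one, and among the other 10 it was 4, beside 31.7%. Promoter entries of these genes had a median GC content of 65.6%, against 62% for all, and regions lay more often at such promoters. The share of all promoters overlapped by a region was 4.47% below a GC content of 50%, 25.2% from 50 to 60%, 45.9% from 60 to 70% and 56.8% from 70%. In the same classes 0 of 12, 6 of 15, 13 of 22 and 19 of 30 promoters of these genes were overlapped, in all 48.1%, and 39.8% would be if each class had the share of all promoters. The part of GC content in the higher share was not tested beyond this weighting.

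**Figure D2:**
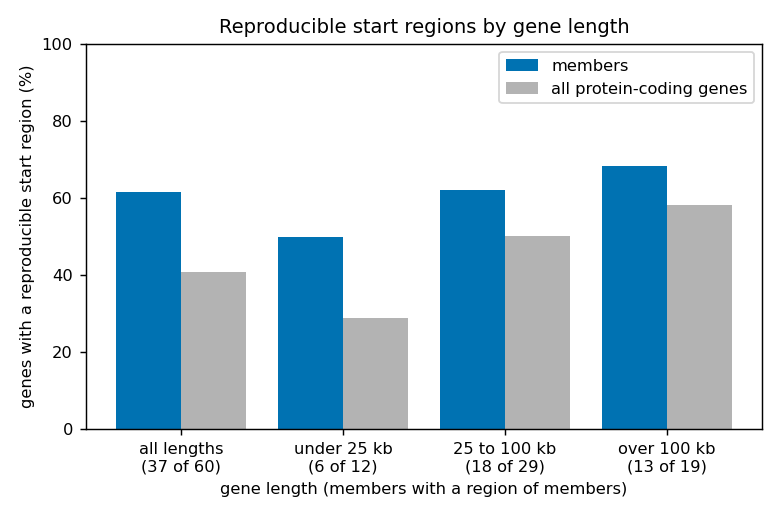
Share of genes (percent, vertical axis) with a reproducible start region, for all lengths and for 3 classes of gene length (horizontal axis), in the 60 genes and in all protein-coding genes. The 60 genes stand above all genes in each class, with 13 of 19 against 58.3% in the longest.

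Start regions of these genes resembled those of other genes in strength, width and position. The fold is the deposited enrichment of a peak over its local background, a value of the authors for each peak, and the highest in a region was taken for each library. The mean over libraries had a median of 6.73 over the 37 genes (quartiles 5.87 and 7.19), beside 6.66 (5.86 and 7.49) over 8156 genes with a start region. The regions had a median width of 902 bp, beside 874 bp. Of 133 summits in them, 117 (88.0%) lay within 500 bp of a start, and the median distance was 143 to 190 bp across the 4 libraries, beside 126 to 160 bp for all genes. The 8 summits over 1 kb away belonged to KMT2E, whose region with peaks of all 4 libraries was centred upstream of the start, and KDM6B, whose region lay inside the gene. Behind these folds stood few fragments. The pileup at the summit, recovered from the deposited fold and p, had a median of 18, 11, 15 and 36 fragments in replicates 1 to 4, with lowest values of 10, 6, 9 and 13.

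**Figure D3:**
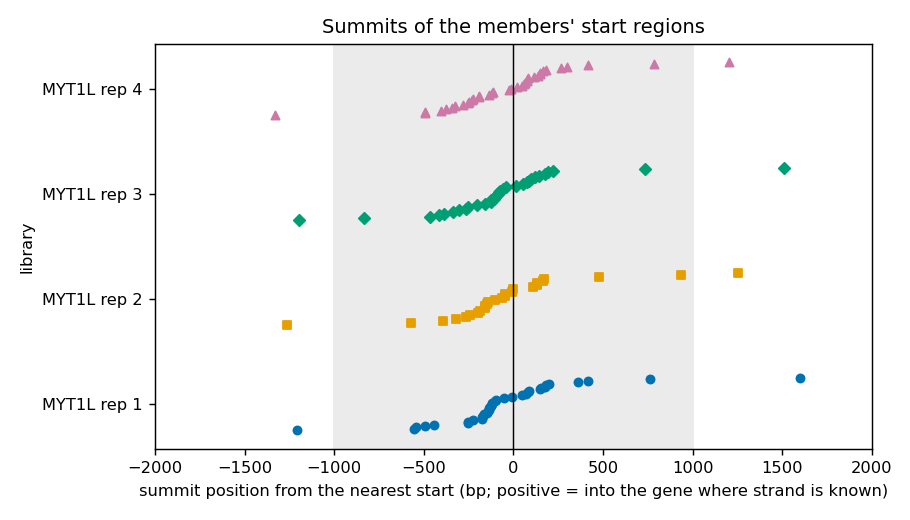
Position of each summit from the nearest gene start (horizontal axis, bp, positive into the gene where the strand is known) in the start regions of the 37 genes, by MYT1L library (vertical axis). The grey band spans 1 kb on each side of the start, and 8 of the 133 summits lie outside it, those of KMT2E on the left and KDM6B on the right.

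The order of the genes by fold differed between libraries. Over the 22 genes with a start peak in all 4 libraries, Spearman's rho between libraries averaged 0.246 over the 6 pairs (0.0740 to 0.595), beside 0.347 over 4237 such genes in the whole table. These are correlations across genes, which share their libraries. Replicate 4 gave the highest fold in 13 of the 22 genes (59.1%), against 87.9% of the 4237. Its median fold over the 37 genes was 7.98, against 5.75, 6.06 and 5.70 in replicates 1 to 3, so means over different libraries are not directly comparable. All 37 start regions held a peak of replicates 1 and 4, 11 lacked one of replicate 2 and 4 lacked one of replicate 3. Binding in fewer cells and weaker binding per cell cannot be told apart in such libraries.

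**Figure D4:**
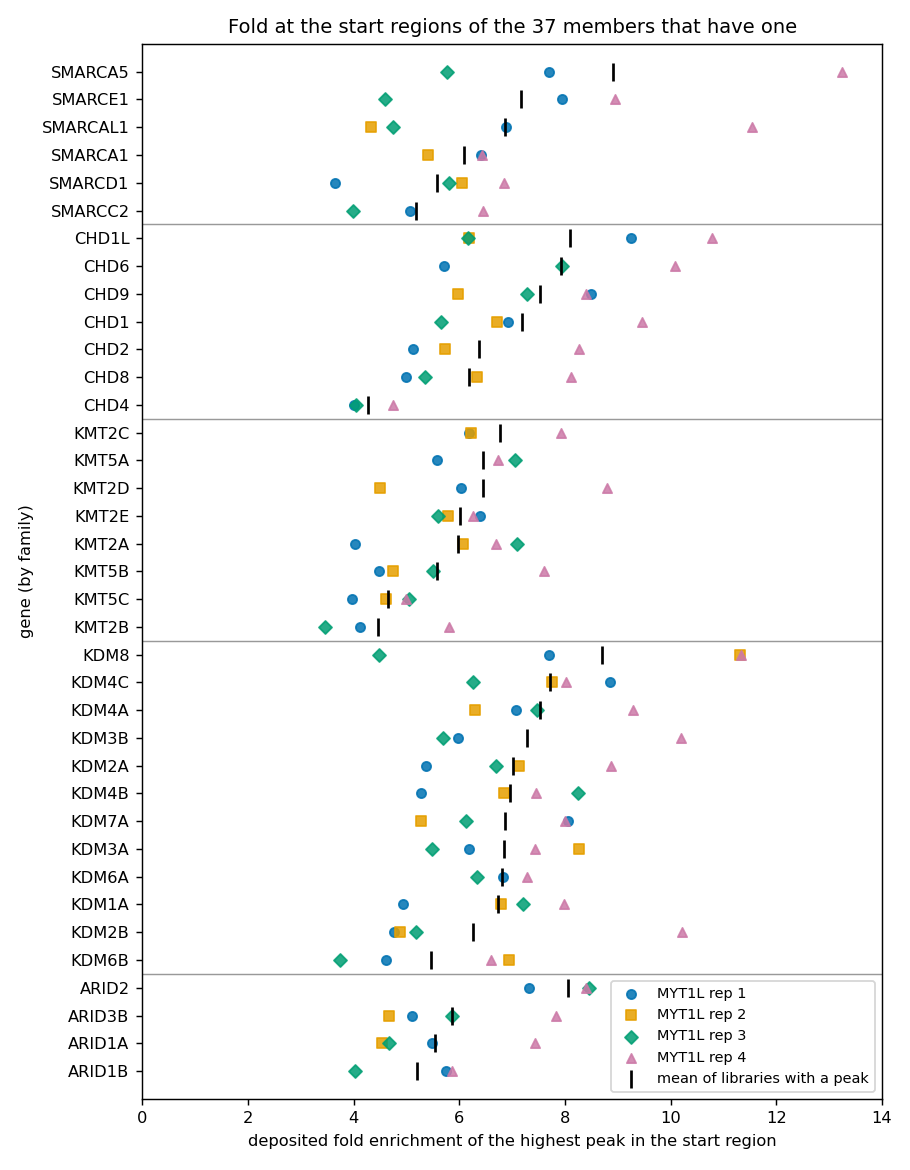
Deposited fold (horizontal axis, ratio to local background) of the highest peak in the start region of each of the 37 genes (vertical axis, by family), for each MYT1L library with a peak, with their mean as a bar. Replicate 4 is the highest in 13 of the 22 genes with 4 values, and it reaches 13.2 in SMARCA5.

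Among the SMARC genes, 6 of 13 had a start region, and the 2 alternative BAF motors were not among them. This count and those of the other families stand beside 40.7% of all protein-coding genes. That share was 48.5% when weighted by the length classes of the 60 genes, and the families were not weighted singly. SMARCA5, the ISWI ATPase, had the highest mean fold of the 37 genes over the libraries with a peak, with 7.69 in replicate 1, 5.77 in replicate 3 and 13.2 in replicate 4 and no peak in replicate 2 (mean 8.90 ± 3.88, SD, n = 3; chromosome 4, 143513161 to 143514199). Its value in replicate 4 was far above its other values, which lay within the range of the other genes. The second ISWI ATPase, SMARCA1, had folds of 6.41, 5.42 and 6.42 in replicates 1, 2 and 4. SMARCAL1, which anneals DNA at stalled forks, had peaks of all 4 libraries, with folds of 6.89, 4.33, 4.75 and 11.5. The BAF subunit genes SMARCD1 (mean 5.59 ± 1.37, n = 4), SMARCE1 (7.16 ± 2.28, n = 3) and SMARCC2 (5.17 ± 1.24, n = 3) also had a start region. SMARCA4, the main BAF ATPase of dividing cells, had start peaks only in replicates 1 and 4, at 5.60 and 7.40. Its alternative SMARCA2 had a start region with a peak of replicate 4 (5.55), and peaks of 2 MYT1L libraries within 5 kb of its starts. SMARCB1, a core subunit lost in rhabdoid tumours, had 3.95 and 9.92 in replicates 1 and 4, and SMARCC1 had 5.84 and 6.54 there. These genes had a called peak in fewer libraries, with folds in the range of the genes above.

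Of the ARID genes, which encode DNA-binding subunits and related factors, 4 of 8 had a start region. ARID1A, the most often mutated BAF subunit in cancer, had peaks of all 4 libraries, with folds of 5.49, 4.54, 4.66 and 7.43 in replicates 1 to 4 (5.53 ± 1.33, n = 4; chromosome 1, 26695353 to 26696863). ARID2, which defines PBAF, had 7.32, 8.45 and 8.40 in replicates 1, 3 and 4, the highest mean of the family (8.06 ± 0.638, n = 3), and no peak in replicate 2. ARID1B, a frequent cause of intellectual disability, had a region at its second start with folds of 5.75, 4.02 and 5.85 in replicates 1, 3 and 4. It also had 2 regions deep in its body, 244 kb and 370 kb from the start, with mean folds of 7.51 ± 1.07 (n = 3) and 7.03 ± 2.51 (n = 4). The 3 values of the first lay above all 3 at the start, and those of the second overlapped them. ARID3B had 5.87 ± 1.40 (n = 4).

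Among the CHD genes 7 of 11 had a start region. CHD1L, a remodeller recruited by poly(ADP-ribose), had regions at 2 separate starts. The first had folds of 9.25, 6.18, 6.17 and 10.8 in replicates 1 to 4 and the second 7.75, 6.60, 5.27 and 12.0, and replicate 4 was the highest in both. The first region also lies at the start of PRKAB2. CHD1, which binds trimethylated lysine 4 of histone H3, had 7.19 ± 1.61 (n = 4), and CHD9 had 7.53 ± 1.18 (n = 4) at an internal start and 7.41 ± 3.47 (n = 3) at its first. CHD8, a leading autism gene, had peaks of all 4 libraries at an internal start, with folds of 4.99, 6.33, 5.34 and 8.11, and of 3 libraries at its 5′ end (5.92 ± 1.12, n = 3). CHD2, mutated in childhood epilepsy, had 5.12, 5.73 and 8.27 in replicates 1, 2 and 4 at its start and a further region in its body 4.04 kb away (7.61 ± 2.20, n = 3). CHD6 had 7.92 ± 2.18 (n = 3). The 3 NuRD ATPase genes were weak or not called. CHD4 had the lowest mean of the 37 genes, with 4.00, 4.04 and 4.75 in replicates 1, 3 and 4 (4.27 ± 0.423, n = 3). CHD3 had a start peak only in replicate 4 (4.59). CHD5, a neuronal NuRD ATPase, had a start region with a peak of replicate 4 (3.93), and peaks of 2 MYT1L libraries within 5 kb of either end. CHD7, mutated in CHARGE syndrome, had 4.41 and 6.0 in replicates 1 and 4.

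All 8 KMT genes had a start region, 4 of them with peaks of all 4 libraries. KMT2A, a writer of methylation at lysine 4 of histone H3, had folds of 4.03, 6.06, 7.10 and 6.69 in replicates 1 to 4 (5.97 ± 1.36, n = 4; chromosome 11, 118435949 to 118436782). Its summits lay at −244 to −157 bp from the start, inside the printed window in every library. Its relatives KMT2C (6.78 ± 0.994, n = 3), KMT2D, the Kabuki syndrome gene (6.44 ± 2.18, n = 3), and KMT2B (4.46 ± 1.22, n = 3) had peaks in 3 libraries. KMT2E, which lacks clear methyltransferase activity, had 6.40, 5.78, 5.60 and 6.26 in replicates 1 to 4, the narrowest spread of the genes with 4 values (SD 0.381). This region was centred 1.30 kb upstream of the start. A second region, which spans the start, had 4.08, 4.20 and 6.92 in replicates 1, 3 and 4 (5.07 ± 1.61, n = 3). KMT5A, which monomethylates histone H4, had a region at each of 2 starts, with means of 6.45 ± 0.783 and 5.58 ± 0.834 (n = 3 each). KMT5B and KMT5C, which add the further methyl groups, had 5.58 ± 1.41 and 4.66 ± 0.494 (n = 4 each). The family's folds ran from 4.46 to 6.78, within the range of the other families.

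Among the KDM genes 12 of 20 had a start region, 10 of them with peaks of all 4 libraries. KDM8, a JmjC oxygenase, had the highest mean of the 22 genes with a start region of all 4 libraries and no IgG peak, with folds of 7.70, 11.3, 4.48 and 11.3 in replicates 1 to 4 (8.71 ± 3.30, n = 4; chromosome 16, 27203447 to 27204271). Its lowest and highest values lay far apart, and its mean is correspondingly uncertain. Of the KDM3 and KDM4 genes, mostly erasers of methylation at lysine 9 of histone H3, start regions were found at KDM4C (7.72 ± 1.08), KDM4A (7.53 ± 1.27), KDM4B (6.95 ± 1.26) and KDM3A (6.84 ± 1.25, n = 4 each) and KDM3B (7.29 ± 2.52, n = 3), and KDM4D, KDM4E and KDM4F had none. KDM2A, an eraser at lysine 36, had regions at 2 starts, with 7.02 ± 1.44 and 6.97 ± 1.42 (n = 4 each), and all 4 summits of each lay inside the promoter window. KDM7A had 6.86 ± 1.38 and KDM1A, the flavin-dependent eraser found with CoREST, had 4.93, 6.79, 7.21 and 7.98 (6.73 ± 1.29, n = 4 each). The erasers at lysine 27 also had regions, KDM6A on the X chromosome with 6.82, 6.34 and 7.29 in replicates 1, 3 and 4, and KDM6B with 5.47 ± 1.54 (n = 4). KDM2B had 4.77, 4.88 and 5.18 in replicates 1 to 3 and 10.2 in replicate 4, at a start inside the gene.

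The KDM5 genes, erasers at lysine 4, had no reproducible start region without IgG signal. KDM5A had MYT1L folds of 11.3, 10.4, 7.31 and 13.2 in replicates 1 to 4, the highest mean of the genes with peaks in all 4 libraries (10.5 ± 2.46, n = 4), and IgG replicate 1 had a peak there with a fold of 4.41 (chromosome 12, 389467 to 389696). KDM1B, the second flavin-dependent eraser, had 8.58, 6.33, 9.57 and 10.6 (8.77 ± 1.83, n = 4), and IgG replicate 2 had a peak with a fold of 5.38. At both genes the MYT1L folds exceeded that of the control in every library, but folds of separate lists are each relative to their own background, and both regions were left out of the counts by the rule. These were the only IgG peaks at the 60 genes, 3.33% of them beside 4.16% of all genes. KDM5B had a start region with peaks of replicates 3 and 4 (4.24 and 4.55), and peaks of all 4 MYT1L libraries within 5 kb of its start. KDM5C, an intellectual disability gene on the X chromosome, had a start peak of replicate 4 only (7.0). KDM5D and KDM4E had no MYT1L peak in the body or within 5 kb, 3.33% of the genes beside 15.9% of all genes, without weighting by length.

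Of the 23 genes without a reproducible start region, 2 are the IgG-marked KDM1B and KDM5A. The most libraries in any 1 start region was 2 for 9 genes and 1 for 7 genes, and 5 had no start peak. Another library can have a separate peak near the same start. The 9 were ARID3C, CHD7, KDM4D, KDM5B, SMARCA4, SMARCAD1, SMARCB1, SMARCC1 and SMARCD2, with replicates 1 and 4 in 6 cases and replicates 3 and 4 in 3. The start region read for each of the 7, ARID3A, ARID5A, CHD3, CHD5, KDM5C, SMARCA2 and SMARCD3, held a peak of replicate 4, the library with most peaks. The 5 without a start peak were ARID5B, CHD9NB, KDM4E, KDM4F and KDM5D. Asking for at least 2 of the 4 libraries gave 46 genes with a start region (76.7%) in place of 37, and 55.4% of all genes. A gene without a called peak is not shown to be unbound.

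Regions away from starts were fewer. In all, 61 distinct reproducible regions lay in or near the 60 genes, 43 at a start, 10 in a gene body and 8 in the flanking 5 kb. This split is not given for all genes, nor is the share of flank regions at neighbours' starts. Among all protein-coding genes, too, a start region (40.7%) was more common than a region away from the start (13.3%). No region lay within 1 kb of a 3′ end where the strand is known. The median was 1 region a gene, beside 0 for all genes, with 3 at ARID1B, CHD9 and KDM4C, 2 at 15 genes, 1 at 23 and 0 at 19. At least 1 region away from the start was seen for 17 genes (28.3%), beside 13.3% of all genes, and 15.7% after weighting by length class. By length the counts were 5 of 12 genes under 25 kb (10.1% of all such genes), 5 of 29 up to 100 kb (12.8%) and 7 of 19 above (23.6%). For the 5 under 25 kb these were flank regions only, all except that of KMT2B at the start of a neighbouring gene. None of the 10 body regions lay within 1 kb of the start of another protein-coding gene. They were at ARID1B and KDM4C (2 each) and at KDM7A, KDM2B, CHD2, CHD9, CHD6 and KDM6A (1 each). Of 9 flank assignments, 8 lay at the start of a neighbouring gene, such as NOP2 beside CHD4, ST3GAL3 beside KDM4A, and PSMC5 and FTSJ3 beside SMARCD2. The flank region assigned to CHD9NB was that at the start of CHD9. Without the neighbours' starts, 4 genes, among them CHD3, CHD9NB and SMARCD2, would have had no reproducible region, and the count of genes with one would fall from 41 to 37. The share of all genes was not recomputed in this way, so the 37 has no share beside it.

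In the body of KDM4C, the regions on chromosome 9 from 6798753 to 6799404 and from 6806926 to 6807808 had mean folds of 5.39 ± 0.737 (n = 4) and 6.97 ± 0.699 (n = 3). That of CHD6 on chromosome 20 from 41554937 to 41556161 had 5.11, 7.25, 4.73 and 7.26 in replicates 1 to 4. That of KDM6A on the X chromosome from 45040379 to 45042024 had 6.18 ± 1.22 (n = 3). The body regions had folds in the range of the start regions, 5.38 (KDM7A) to 7.61 (CHD2). Exons and introns were not assigned.

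Partner genes of these complexes and related enzyme genes, from lists of 83 genes, had start regions about as often, 50 of 83 (60.2%), with a median fold of 6.68. This share was not weighted by gene length. Of the BAF and PBAF subunits with other symbols 10 of 19 had one, of the NuRD subunits 8 of 12, of the ISWI and INO80 partners 9 of 12, of the COMPASS subunits 8 of 14, of the other histone lysine methyltransferases 11 of 18 and of the other JmjC proteins 4 of 8. Among the BAF and PBAF subunits with a start region were ACTL6A (8.65 ± 1.37, n = 3), PHF10 (8.23 ± 1.91, n = 3), DPF2 (6.19 ± 0.901, n = 3), SS18 (8.20 ± 2.38, n = 4) and SS18L1 (5.71 ± 1.32, n = 3). The Polycomb genes EZH2 (6.46 ± 1.58, n = 4), EZH1 (6.51 ± 2.56, n = 4) and SUZ12 (6.33 ± 2.19, n = 3) had one and EED had none. PBRM1, the PBAF bromodomain subunit, and INO80, a remodeller ATPase, had the highest means of these lists, 9.58 ± 3.76 and 9.24 ± 3.25 (n = 4 each).

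**Figure D5:**
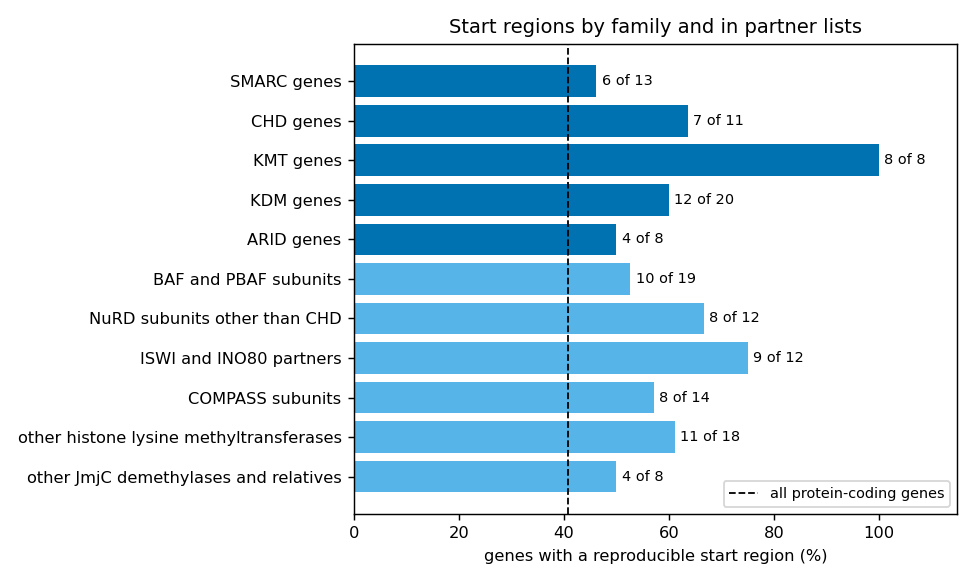
Share of genes (percent, horizontal axis) with a reproducible start region in the 5 families (dark bars) and in 6 lists of partner and related genes (light bars), with the number of genes beside each bar and the share of all protein-coding genes, 40.7%, as a dashed line. KMT genes stand at 8 of 8 and SMARC genes at 6 of 13, and every bar passes the dashed line.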

How the data were processed

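CUT&RUN peak lists of 4 MYT1L and 2 IgG libraries were analysed. Per the submitters' processing notes, MACS2 and the hg38 build were used, and versions, aligner, threshold and control library are not given in the sources used here. Each deposited list holds the peaks of 1 library, with the authors' fold (a ratio over local background), −log10 p, −log10 q and score for each peak, and replicates do not appear pooled. Positions are counted from 1. Peaks on chromosomes 1 to 22, X and Y were used, with a lowest −log10 q of 2.00 to 2.01.

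Gene positions and promoters came from the RefSeq tables of GRCh38.p14. Overlaps of at least 1 bp were found in Python 3.11.15 with pandas 2.3.3, numpy 2.4.6 and scipy 1.17.1, and tested on simulated data. Total read numbers are unknown. Whole-number pileups were recovered from fold and p, within 0.0002 on the −log10 p scale, for 99.97% to 100% of the peaks up to a −log10 p of 200, and the lowest background shared by peaks served as depth. For reduced depth, the pileup was thinned binomially and the local background was scaled by the same ratio of depths. The result was held against the lowest −log10 p of the control list. Peaks without a recovered pileup were counted as kept.

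Genes named were all genes of the set by family, the 10 of highest mean start fold with 4 libraries, the genes with most regions, with an IgG peak or without a MYT1L peak, and a list of 23 taken whatever their values. The genes and lists were chosen with earlier results of these data known. Groups and replicate numbers are from the sample titles, and peak names in the MYT1L lists carry numbers 1 higher. No set test or p over the genes was computed. Some items are not reported here.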

Additional observations from a re-analysis of the deposited data

Results flagged for a closer look

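Among the 22 genes with a start peak in all 4 MYT1L libraries, 1 had a library far from the others. At KDM2B the gap between replicate 4 (fold 10.2) and the next highest library (5.18) made up 0.924 of the whole range, above Dixon's 95% critical value for 4 values. That value flags about 1 in 20 groups of 4 values drawn alike, and here 1 of 22 was flagged. Replicate 4 gave the highest fold in 13 of the 22 genes, so the libraries were not alike and that rate may not hold. Replicate 4 also had the highest pileup there, 44 fragments against 9 to 15 in the other libraries. This was not particular to KDM2B, since the median start pileup was 36 in replicate 4 and 18, 11 and 15 in replicates 1 to 3. The pileup was recovered from the fold and p, so it is not a separate observation. The part of replicate 4's higher pileups in the flagged value was not tested.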

How the results depend on the processing

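The alternatives were planned, except those without CHD9NB and with promoter entries only, which were chosen after seeing the data. The number of genes with a reproducible region, 41, stayed between 28 and 51 in 15 alternatives, and the median start fold between 6.20 and 7.19 in 14. The number with a start region, 37, was 22 when all 4 libraries were required, and stayed between 27 and 46 in the other 15. In each of these 16 it was a larger share of the 60 genes (or of the 59 or 50 then counted) than of all protein-coding genes. The shares of all genes in these alternatives were not weighted by length. Leaving out 1 library in turn gave 35 to 46 genes with a start region, 41 to 51 with a region, and 62 to 84 distinct regions. The number of distinct regions, 61, was 39 when peaks below a −log10 q of 5 were dropped, and 32 when all 4 libraries were required. The difference between MYT1L and IgG libraries in genes with a peak, 47.8, was 39.5 without peaks below that q and 0.500 with the same 976 top peaks from every list, and 45.0 to 50.7 without each library in turn. Taken within the replicate numbers 1 and 2 as a replicate block it was 46.0. The labels do not say that a number marks a shared batch, so this pairing rests on the number alone. A gene with few fragments at its start can miss a list through counting error alone.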

Other observations

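Replicate 4 gave the highest start fold in 13 of 22 remodeller and methylation genes (59.1%) and in 87.9% of all 4237 genes with a start peak in every MYT1L library. At the remaining 9 genes the highest value came from replicate 1 (4 genes), replicate 2 (2) or replicate 3 (3). The median start fold of the 37 genes in replicate 4 was 7.98, beside 8.61 for all genes, while in replicates 1 to 3 it was 5.75, 6.06 and 5.70, beside 5.69, 5.87 and 5.76. The difference was not tested.

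In replicates 3 and 4, the libraries with a start peak at both genes, KDM4D had folds of 8.78 and 12.6 and KDM5A, where an IgG peak was called, 7.31 and 13.2. Neither entered the counts of reproducible regions.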
